A study of Mus musculus with 3 samples.

Results

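Abl1 and Abl2 are the mouse genes of the Abl kinases, and the small RNAs described here are those copied from their transcripts. A listed sequence belonged to them when it matched a transcript of Abl1 or Abl2 exactly, over its whole length and on the gene's own chromosome. Of 2219118 distinct sequences in the list, 2670 were members in the sense direction, 2397 of Abl2 and 273 of Abl1. Another 2 were antisense, both of Abl2. The genes were chosen by these numbers of sense sequences, in which Abl2 held rank 3 among 21951 protein-coding genes, and the numbers are therefore given as a description.

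The series sequenced small RNAs bound to Mili, a Piwi protein, or to its Tudor-domain partner Tdrd1, in testes of C57BL/6 mice. The 3 libraries were a Tdrd1 immunoprecipitate of adult testes, a Mili immunoprecipitate of adult wild-type testes and a Mili immunoprecipitate of Tdrd1-knockout testes at 15 days after birth. Knockout and wild type thus differ in age as well as in genotype, which cannot be told apart, and the labels give no genotype for the Tdrd1 library. The list used here pools the series and carries no library and no read number, so neither gene was compared between immunoprecipitates. Every value counts distinct sequences, an abundant and a rare small RNA weighing the same, and the depth of each library is unknown. Marker genes of testis cell types were also looked up. Of the germ-cell genes 6 of 6 had sense sequences, at 40.1 to 165 per kb of exon. Over all protein-coding genes 71.0% had at least 1, with a median of 2.89 per kb. The 5 Sertoli-cell genes ranged from 0 to 2.99 per kb. Of the 4 Leydig-cell genes, Cyp17a1 and Hsd3b6 had 0 and Insl3 had 11.2 per kb. These values count small RNAs bound to Mili or Tdrd1 and not mRNA, so they do not check the tissue label.

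Abl kinases are non-receptor tyrosine kinases that carry signals from growth-factor and adhesion receptors to the actin cytoskeleton. Both members share an SH3 domain, an SH2 domain and a kinase domain and end in a long carboxy-terminal part. Abl1 also acts in the nucleus, while Abl2 (Arg) is known for binding actin and microtubules. A shorter Abl1 mRNA with a truncated 3′ untranslated region (UTR) is known from haploid male germ cells. piRNAs are the small RNAs that Piwi proteins carry; they are cut from long single-stranded transcripts, mostly start with U and guide Piwi proteins to matching RNA. The 3′ UTRs of some mRNAs are a known source of them.

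The small RNAs with the most ragged ends are printed for the main sources of each gene, 3 for the Abl2 3′ UTR and 1 for each of the others. Letters are 5′ to 3′ as listed (T stands for U), the capital marks the first base, and positions are those of the list on mm9, all on the plus strand, which is the strand of both genes.
Abl2 3′ UTR, chr1:158578010-158578036: Tgattagaaactgacagaagccgttta
Abl2 3′ UTR, chr1:158574504-158574530: Taagaaactttgaactgccagaatcgg
Abl2 3′ UTR, chr1:158574992-158575018: Tcagagttctgaaaacaagcaagtagt
Abl2 coding sequence, chr1:158555666-158555692: Tgagggacgtgtgtatcactacaggat
Abl1 coding sequence, chr2:31655995-31656021: Tcagacgcagcagagcctaccaagtcc
Abl1 5′ UTR, chr2:31545064-31545090: Tagattgaagaaacttttggcattgcg
Abl1 3′ UTR, chr2:31657526-31657552: Taaagagagacaagcagagcctgaggg
Abl1 last intron, chr2:31654039-31654065: Tgactaaagaaacctggggaggagagc
The first Abl2 sequence starts at position 5163 of the 3′ UTR and its 5′ end was listed with 10 lengths, every one from 23 to 32 nt. The next 2 had 9 lengths each. The printed Abl2 coding and the printed Abl1 5′ UTR, coding and 3′ UTR sequences had 4 lengths each, the highest number in those parts, and the intron sequence had 5.

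Abl2 small RNAs came almost wholly from the 3′ UTR. The 2397 sense sequences lay on chromosome 1 between 158489135 and 158579642, and 2393 of them matched the longest coding transcript, which has 13 exons. Its 3′ UTR of 6852 nt held 2310 of these, 96.5% (exact Clopper-Pearson 95% interval 95.7 to 97.2%), although it makes up 67.5% of the transcript's length. The coding sequence of 3237 nt held 82 sequences, 3.43% (2.73 to 4.24%), and the 5′ UTR of 62 nt held 1. These intervals cover counting error only, and since overlapping sequences of 1 transcript are not independent, the real error is larger.

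Per kb of its own length, the Abl2 3′ UTR held 337 sequences (exact Poisson 95% interval 324 to 351), against 25.3 (20.1 to 31.4) in the coding sequence. The ratio was 13.3. It fell to 8.31 when each 5′ end was counted once, since 5′ ends in the 3′ UTR had more listed lengths. The step lies within a single exon: the last exon holds the final 1175 nt of coding sequence with 21.3 sequences per kb and then the whole 3′ UTR. It is therefore not at an exon junction. The list gives each sequence 1 unbroken range on the genome, so small RNAs that cross a splice junction could not be seen in it.

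Abl1 was covered differently. Its 273 sense sequences lay on chromosome 2 between 31543899 and 31659576, and 235 matched the longest coding transcript, which has 11 exons. The coding sequence held 97 of them (41.3%, 34.9 to 47.9%), the 3′ UTR 75 (31.9%, 26 to 38.3%) and the 5′ UTR 63 (26.8%, 21.3 to 33%). These parts make up 54.2%, 26% and 19.9% of the transcript. Per kb the 5′ UTR held 50.2 sequences (38.5 to 64.2), the coding sequence 28.3 (22.9 to 34.5) and the 3′ UTR 45.7 (35.9 to 57.3), so that the 3′ UTR of Abl1 stood 1.61 times above its coding sequence. With each 5′ end counted once this ratio was 1.35. Both UTR intervals lie above that of the whole coding sequence and overlap each other. Within the last exon the coding part held 37.8 per kb (29.1 to 48.2), an interval that overlaps that of the 3′ UTR, whereas the coding exons before it held 19.02 (13.1 to 26.7).

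Set side by side, the genes were alike in the density of the coding sequence as a whole and unlike in their 3′ UTRs. The coding density of Abl2 was 0.896 times that of Abl1, with intervals that overlap. Parts of the coding sequence differed in opposite directions. In 7 pairs of exons of equal length Abl2 had 44 sequences and Abl1 had 12. The coding part of the last exon held 21.3 per kb (13.8 to 31.4) in Abl2 and 37.8 (29.1 to 48.2) in Abl1. The 3′ UTR density was 7.38 times as high in Abl2, with intervals far apart. Because the list holds no replicate and neighbouring sequences share their source, no test of this difference was made. Sequences per kb of merged exon, the measure used for whole genes, came to 222 for Abl2 and 23.5 for Abl1, which placed them 21st and 3002nd among the 21951 protein-coding genes.

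**Figure D1:**
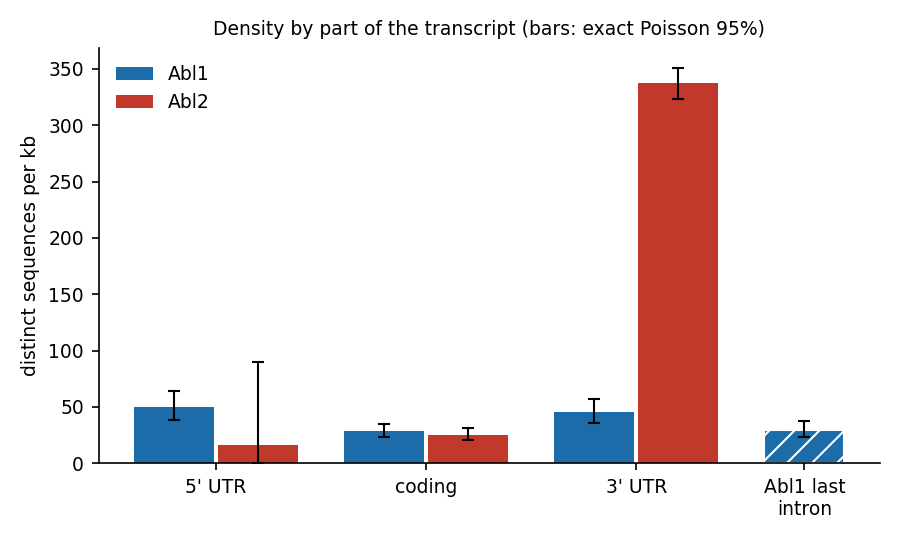
Distinct sense sequences per kb (vertical axis) in the parts of the longest coding transcript of Abl1 (blue) and Abl2 (red), with the last intron of Abl1 hatched; error bars are exact Poisson 95% intervals, for counting error only. The coding bars stand at 28.3 and 25.3, the 3′ UTR bars at 45.7 and 337, and the wide bar of the Abl2 5′ UTR rests on 1 sequence.

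Along the Abl2 3′ UTR the density rose over the first part and fell again towards the end. The 500 nt before the end of the stop codon held 4 sequences, and the following stretches of 500 nt held 63, 67, 113 and 168. The next 7 stretches held between 160 and 291, the highest from 3500 to 4000 nt after the stop codon. The last 2 full stretches held 150 and 133, and the final 352 nt held 33. In 3 stretches of equal length, from the stop codon on, densities were 243, 452 and 316 per kb.

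Coverage was broad and uneven at the same time. Of the 6852 nt, 87.5% were covered by at least 1 sequence, against 32% of the Abl2 coding sequence. In windows of 100 nt the 3′ UTR had a median of 28 sequences, 118 in the fullest window, centred 5150 nt after the stop codon, and 0 in 2 of 69 windows. Up to 86 sequences lay over a single base. In Abl1 the 3′ UTR was covered over 42.1% of its length, the coding sequence over 29% and the 5′ UTR over 44.6%, and at most 13 sequences lay over a base.

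**Figure D2:**
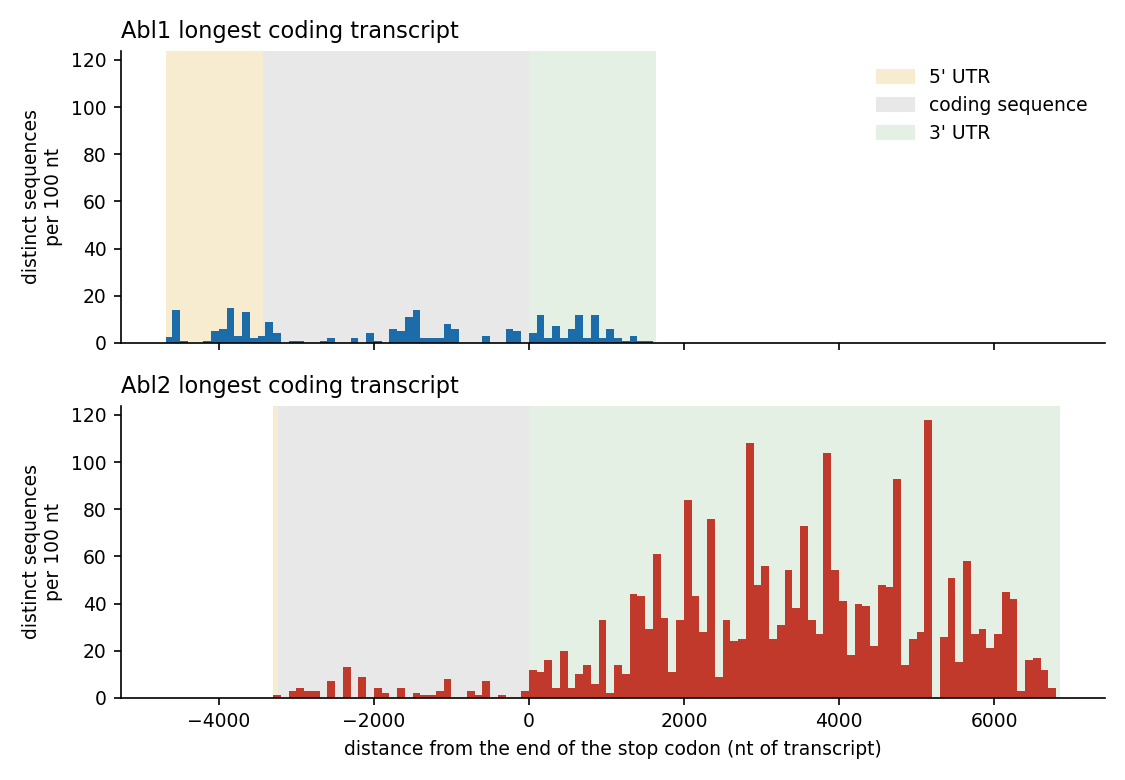
Distinct sense sequences per 100 nt (vertical axis, the same scale in both panels) along the longest coding transcript of Abl1 (top) and Abl2 (bottom), by distance in nt from the end of the stop codon; shading marks 5′ UTR, coding sequence and 3′ UTR. Abl2 bars rise after the stop codon up to 118, while Abl1 bars stay low over the whole transcript, with gaps in the 5′ UTR and the coding part.

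The end of the Abl2 signal lay near the annotated end of the gene. In the 10000 bp beyond the last matching sequence 23 listed sequences started, and 11 ended in the 10000 bp before the first. For Abl1 the same flanks held 91 and 74. Another full coding transcript of Abl1 has a 3′ UTR of 2328 nt, whose last 686 nt lie beyond the end of the one used above. That distal stretch held 20 sequences, 29.2 per kb, so that small RNAs of Abl1 were not limited to the shorter 3′ UTR. Another 16 of the 273 matched neither of these transcripts but only exons of the other annotated ones.

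Exon by exon, every coding part of Abl2 lay far below its 3′ UTR, at 0 to 51.3 per kb. Exon 5 (273 nt) held 14 sequences, exon 4 (296 nt) held 11 and exon 7 (178 nt) held 9, while the coding part of exon 1 and exon 6 held 0. In Abl1, 74 sequences came from exon 1, 63 in the 5′ UTR and 11 in the coding part, and 139 from the last exon. Exons 2 to 10 together held 22, with 0 in exons 5, 6 and 9.

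Abl1 exons 3 to 9 and Abl2 exons 4 to 10 have the same lengths pair by pair. They encode part of the conserved region of SH2 and kinase domains. Over these 7 pairs and 1260 nt, 80.7% of bases were the same in both genes (77.1 to 89.4% per exon). Abl2 had 44 sequences there and Abl1 had 12, from 33 and 11 5′ ends, of which 1 lay at the same position in both genes. Although the genes are related, 0 of the 273 Abl1 sequences matched an Abl2 transcript and 0 of the 2397 Abl2 sequences an Abl1 transcript, on either strand. The counts of the genes are thus separate. Of the Abl1 sequences 6 also matched Gm13427, an annotated antisense gene that overlaps the start of Abl1, and 0 of Abl2 matched any other gene of its chromosome.

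Introns differed between the genes. Inside the range of its exon matches, Abl1 had 192 further sequences that matched no exon, besides the 273 that did. Abl2 had 15 besides 2397. Of these Abl1 sequences, 74 lay in the last intron, of 2478 bp between exons 10 and 11 (listed positions 31653492 to 31655545). That is 29.9 per kb (23.4 to 37.5), an interval that overlaps that of the Abl1 coding sequence. Sequences matching an annotated retained-intron transcript at the start of this intron count as exonic. The density is taken over the whole intron and may therefore be too low. The first intron, of 88391 bp, held 113, or 1.28 per kb (1.05 to 1.54), and the other intron stretches of Abl1 held between 0 and 2 each. In Abl2 the first intron held 9 sequences, 0.146 per kb, and the last, of 312 bp, held 0.

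The list gives no strand, but overlapping sequences fix it where they share 12 nt or more. In the last Abl1 intron 68 of 74 could be oriented, and all 68 lay on the plus strand, that of the gene. In the first intron 31 of 113 could be oriented, and these 31 were also plus. U started 60 of the 74 in the last intron, 81.1%. The 15 intronic sequences of Abl2 overlapped too little to be oriented. GENCODE annotates 3 Abl1 transcripts with retained introns, of which 1 takes in the start of the last intron and none the whole of it.

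Both genes' sequences had the size and first base known for piRNAs. Lengths of Abl2 ran from 18 to 32 nt with a mean of 27.3 ± 1.79 nt (SD over 2397 sequences), and those of Abl1 from 23 to 32 nt with a mean of 27.2 ± 1.52 nt (SD over 273 sequences). The most common length was 27 nt in both, with 23.3% and 26%. RNA of around 28 to 30 nt was eluted from a gel, according to the labels, which limits the lengths that could be listed. Of the Abl2 sequences 25.4% (23.7 to 27.2%) measured 29 to 32 nt, above the 19.9% of the whole list. For Abl1 it was 19.4% (14.9 to 24.6%), an interval that contains the value of the list and overlaps that of Abl2. Among mRNAs rich in small RNAs the Abl2 value was ordinary. Over the 1264 protein-coding genes with 200 or more sequences, the median share of 29 to 32 nt among sequences of 24 to 32 nt was 24.8%. On that measure 511 genes lay above the 25.9% of Abl2 and 1095 above the 19.7% of Abl1.

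**Figure D3:**
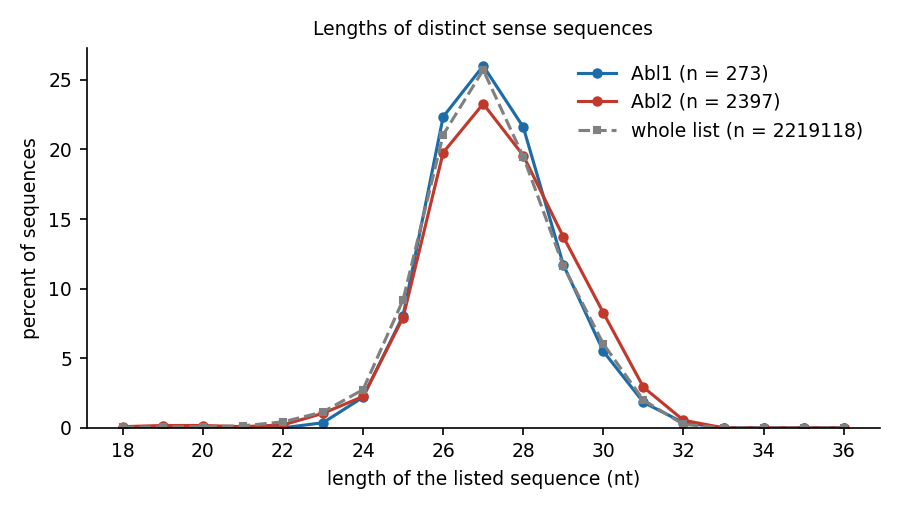
Percent of distinct sequences (vertical axis) by length in nt for Abl1 (blue, 273), Abl2 (red, 2397) and the whole list (grey, 2219118). All 3 curves peak at 27 nt, and the Abl2 curve runs lower at 26 and 27 nt and higher from 29 to 31 nt than the other two.

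Among sequences of 24 to 32 nt, U was the first base of 72.9% in Abl2 (71.1 to 74.7%) and 70.2% in Abl1 (64.4 to 75.6%), against 68.7% in the whole list. The genes' intervals overlap. With each 5′ end counted once the shares were 62.7% and 64.0%. Within Abl2 the share was 73.2% (71.4 to 75.1%) in the 3′ UTR and 65.4% (54.0 to 75.7%) in the coding sequence, again with overlapping intervals. In Abl1 it was 68.3% in the 5′ UTR, 67.0% in the coding sequence and 71.6% in the 3′ UTR.

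U was used far more often than its frequency in the RNA. It makes up 28.9% of the Abl2 3′ UTR, and 34.7% (32.6 to 36.9%) of its 1981 U positions were the 5′ end of a listed sequence. Of the A positions 9.92% were used, of the C positions 8.38% and of the G positions 6.56%. In the Abl1 coding sequence 7.64% of U positions were used and between 0.610% and 1.55% of the others. The Abl2 coding sequence had 5.63% for U and at most 1.27% for the others, so the preference for U held in the dense and in the sparse parts alike.

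The 5′ ends with many 3′ ends started with U nearly always. The 2397 Abl2 sequences came from 1158 5′ ends, 2.07 per end, and the 273 of Abl1 from 198, 1.38 per end. In Abl2 610 ends had 1 length and 99 had 5 or more. Of the latter 94 started with U (94.9%, 88.6 to 98.3%), and of the former 307 (50.3%, 46.3 to 54.4%). In the exons of Abl1 no 5′ end had more than 4 lengths, and of 145 ends with 1 length 57.2% started with U.

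Marks of other steps of piRNA production were looked for in the same sequences. A at position 10, which marks piRNAs made by the cutting of a target, was present in 30.3% of Abl2 (28.4 to 32.2%) and 23.5% of Abl1 sequences (18.6 to 29%), against 32.6% in the list and an A content of 24.9% and 22.7% in the transcripts. Position 2, which has no such role, held A in 30.9% and 25.4%, close to the values at position 10. Among the 638 Abl2 sequences not starting with U, 32.1% had A at position 10 (28.5 to 35.9%). For the 81 such sequences of Abl1 it was 25.9% (16.8 to 36.9%). Position 2 was not looked at in these subsets. When piRNAs are cut one after another from an RNA, the base after the cut is often U and the next 5′ end follows at once. U followed 29.1% of Abl2 sequences (27.3 to 31.0%) and 22.6% of Abl1 sequences (17.5 to 28.6%), where U makes up 25.8% and 21.0% of the transcripts. In the Abl2 3′ UTR, where nearly all of its sequences lie, U makes up 28.9%, a value inside the interval. Directly after a 3′ end, 218 pairs of distinct Abl2 ends were counted, fewer than the 247 ± 11.1 (SD over gaps of 1 to 20 nt), and in Abl1 4 against 7.6 ± 1.64. A gap of 0 nt thus did not stand above the others in either gene. Each end counted once, without read numbers, and the Abl2 3′ UTR held 1091 5′ ends over 6852 nt. Single Abl2 5′ ends were listed with up to 10 lengths, so not every listed 3′ end can be the place of a cut. The count and the share followed by U could therefore miss such a pattern.

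Antisense sequences were nearly absent. Abl1 had 0, which allows up to 1.10% of its sequences. That bound is approximate, taken as 3 counts in 273, and not an exact interval. At least 1 antisense sequence was found for 30.0% of protein-coding genes. Abl2 had 2, both in the 3′ UTR. One of them is printed to show its first base, here read from the minus strand.
Abl2 antisense, chr1:158578422-158578449: Ttataggcatacatggagcaaaggaagt
The other covered 158578249 to 158578279, has 31 nt and also starts with U. They overlapped 7 and 31 sense sequences, and 0 of these met them with 5′ ends 10 nt apart, the offset of piRNA pairs made in the amplification (ping-pong) cycle.

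Compared with other piRNA-rich mRNAs, Abl2 stood near the top for its 3′ UTR and below the middle for its coding sequence. Abl2 was chosen by its number of sense sequences, nearly all of which lie in the 3′ UTR. Its high places for the 3′ UTR therefore restate that choice in part. The 1264 protein-coding genes with 200 or more sequences on the longest coding transcript had a median of 72.5% in the 3′ UTR (quartiles 35.4 and 87.3%). 37 of them lay above the 96.5% of Abl2, and 964 above the 31.9% of Abl1. Shares of 90% or more, a bound chosen after seeing the data, were found in 18.6% of these genes. For 3′ UTR density 7 genes exceeded Abl2 and the median was 63.8 per kb, while for coding density 955 exceeded it and the median was 44.5 per kb. In the ratio of the densities 14 of the 1252 genes with both above 0 exceeded Abl2, around a median of 1.45, and 567 exceeded Abl1. In the share starting with U and in mean length the Abl2 sequences were ordinary: 589 genes had a higher share of U and 690 a higher mean length.

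**Figure D4:**
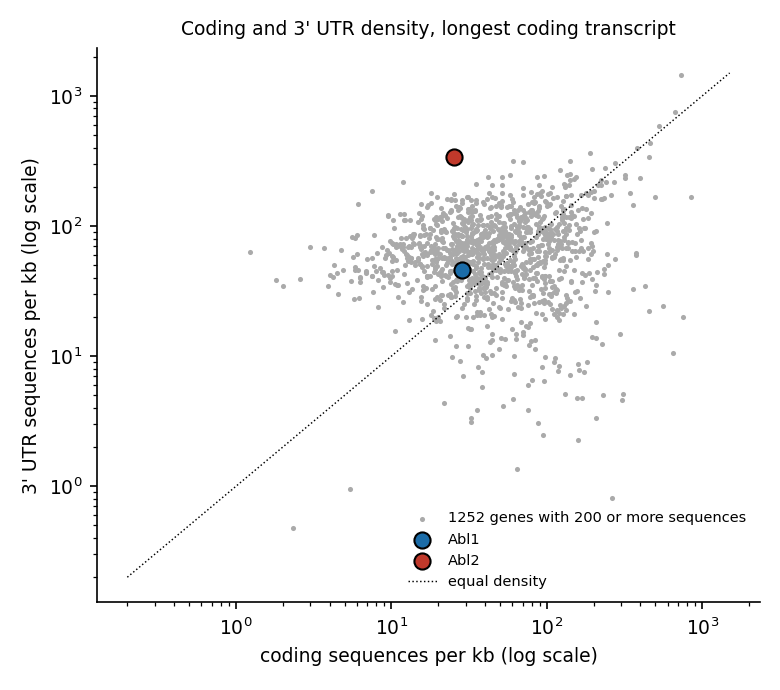
Sequences per kb of 3′ UTR (vertical, log scale) against sequences per kb of coding sequence (horizontal, log scale) for the 1252 protein-coding genes with 200 or more sequences and both values above 0; the dotted line marks equal density, and 12 genes with a part at 0 or without a 3′ UTR are not drawn. Abl2 (red) lies at 337 and 25.3, at the upper edge of the cloud, and Abl1 (blue) at 45.7 and 28.3, inside it.

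Genes with the most similar sequences in length and first base were found over 18 classes (9 lengths from 24 to 32 nt, each with U or another base first). Among 297 other protein-coding genes with 500 or more such sequences, Map1b, the gene of a microtubule-associated protein, was closest to Abl2, with a sum of absolute differences of 0.0662 in shares, followed by Cbfa2t2 (0.0707) and Ddi2 (0.0751). The median gene stood at 0.164. Map1b had 13.6% of its sequences in the 3′ UTR, Cbfa2t2 92.7% and Ddi2 91.8%, so these 3 genes differed in the part of the mRNA their sequences came from. Closest to Abl1 were Prkab2 (0.136), Zfp217 (0.142) and Stard9 (0.150), around a median of 0.233 over 298 genes. The sums rest on 2351 sequences of Abl2 and only 234 of Abl1, spread over 18 classes. Sampling error alone makes such sums larger than 0, and its size was not worked out. The order of the genes, and which of them is closest, is therefore not established.

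The other non-receptor tyrosine kinases ranged from 0 to 27.2 sense sequences per kb of merged exon. All lay below Abl2, which was chosen by its number of sense sequences. Of 30 further non-receptor tyrosine kinase genes 21 had at least 1 sense sequence, where 71.0% of all protein-coding genes did, and 0 reached 100 per kb, where 1.02% of all genes did, so both counts were near the background. Their median was 1.32 per kb, against 2.89 over all protein-coding genes, and 11 of the 30 lay above the latter. Src led with 27.2 per kb (119 sequences), followed by its relative Yes1 with 19.6 (147) and by Fer, which has a testis form, with 16.9 (79). In 9 of the 30, 0 sense sequences were found: Lyn, Srms, Blk, Fgr, Btk, Bmx, Txk, Ptk2b and Tnk1. Per kb of merged exon Abl1 stood between Src and Yes1. This place depends on the measure, since Abl1 had more sequences than Src in number. On its longest coding transcript Abl1 had 37.1 per kb, a measure for which no values of Src and Yes1 are given here. In Src 48.3% of sequences lay in the 3′ UTR and in Yes1 68.0%, whereas Fer had 1 of 70 there and 68 in the coding sequence.

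Genes of proteins that bind Abl kinases or are phosphorylated by them ranged from 0.215 to 197 per kb. All 32 had at least 1 sense sequence, against the same 71.0% of all protein-coding genes, and 4 reached 100 per kb, against 1.02%. Their median was 8.13 per kb. Crkl, an adaptor that Abl kinases phosphorylate, had 197 per kb (994 sequences) and Arhgap35, the gene of a substrate of these kinases, 134 (1227). Cbl, a ubiquitin ligase, had 127 (1569). The lowest was Sorbs2, an adaptor of the cytoskeleton, with 0.215 (6). Cbl resembled Abl2 in its layout, with 96.9% of 1568 sequences in the 3′ UTR, 179 per kb there and 17.9 per kb in the coding sequence. Arhgap35 had the opposite layout, 74.0 per kb in the 3′ UTR and 193 in the coding sequence, and Crkl had 225 and 140.

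**Figure D5:**
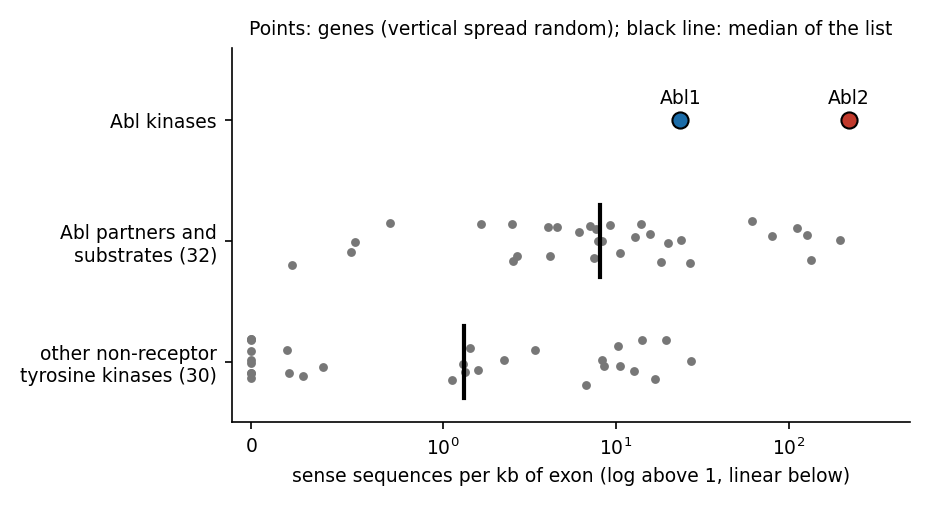
Sense sequences per kb of merged exon (horizontal; log scale above 1, linear below) for Abl1 (blue) and Abl2 (red), 32 genes of Abl partners and substrates and 30 other non-receptor tyrosine kinases; each point is a gene, its height within a row is random, and black lines are medians at 8.13 and 1.32. Abl2, chosen by its number of sense sequences, lies at 222, right of every point of both lists. Abl1 at 23.5 lies near the upper end of the kinases.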

How the data were processed

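Small RNAs from 3 immunoprecipitates of mouse testis, 1 library per group, were sequenced. The file deposited by the authors is 1 list for the series with sequence, chromosome and range; positions are on NCBI mouse build 37 per the file headers, which is called mm9 in the submitters' notes on processing. It holds no count, strand or library, so the comparisons between immunoprecipitates planned from the labels were not computed, and precision is limited by unknown depth. For the aligner, its mismatches and its handling of repeats, nothing is stated in the labels or headers (not given in the sources used here).

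Sequences were matched to GENCODE vM21 transcripts (GRCm38) by sequence only, on both strands, looking up the first 18 nt and then comparing every base, in Python 3.11.15 with numpy 2.4.6, numba 0.67.0 and scipy 1.17.1. The matching was tested on simulated data. All 2628 matches on the longest coding transcripts kept 1 offset between listed and transcript position within each exon. The part of an mRNA was taken at the midpoint of a sequence, the stop codon counting as coding. Introns were placed between the listed positions of neighbouring exons. Intervals are exact (Clopper-Pearson for shares, Poisson for densities) at 95%.

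The members and lists were chosen with earlier results of these data known. Named genes are the 3 highest and the lowest of each list and the 3 most similar to each Abl gene. Printed sequences are the 5′ ends with most listed lengths, at the length nearest 27 nt. Alternatives changed the unit of counting, length range, transcript and matching.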

Additional observations from a re-analysis of the deposited data

How the results depend on the processing

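Alternative shares were held to the interval of the value reported, and numbers, densities and ratios to 1.5 times of it. Of 42 alternatives 34 stayed inside these bounds and 8 did not; most have no direction to change. Counting each 5′ end once moved Abl2 from 2397 to 1158 sense sequences, from 222 to 107 per kb, from 72.9% to 62.7% starting with U, from 3.43% to 5.37% in the coding sequence and from 96.5% to 94.5% in the 3′ UTR. It moved the ratio of 3′ UTR to coding density from 13.3 to 8.31, an alternative chosen after seeing the data, and the share of Abl1 starting with U from 70.2% to 64.0%. The longest coding transcript in place of merged exons moved Abl1 from 23.5 to 37.1 per kb, since merged exons add the exons of its other transcripts to the length. The alternative for introns that needs a match to the whole gene was not run, since no genome of the build was used. No paired analysis was possible because each group has 1 library and the list names none. Distinct sequences rise less than reads where coverage is dense, and their number per read is unknown.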
